A study of Homo sapiens with 8 samples.

Results

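The regions described here are the narrow PHF20-only peaks at coding promoters, that is, 457 of the 4147 peaks in the PHF20 list (11.0%). A peak was counted as a member when it was under 300 bp wide, shared no base with any of the 723 PHF20L1 peaks, and overlapped a promoter, taken as the 1000 bp before and the 500 bp after a transcription start site (TSS) of any transcript of a protein-coding gene. Peaks that met the same conditions at a width of 300 bp or more, 2518 in number, are called wide here and served as the comparison. The members were thus chosen by their width and the absence of a PHF20L1 peak, and both are given as descriptions only.

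The series held 8 ChIP-Seq libraries from U2OS, a human osteosarcoma cell line, in which chromatin was recovered with an antibody to the HA tag. Cells overexpressed 3xHA-tagged PHF20 with the tag at the N terminus (2 ChIP libraries, 1 input), or 3xHA-tagged PHF20L1 with the tag at the N terminus (1 ChIP library, 1 input) or C terminus (2 ChIP libraries, 1 input). Both proteins were expressed from a lentiviral vector and the cells were sorted for the GFP of that vector, so the peaks belong to tagged, overproduced protein. The input libraries were chromatin without antibody and served as the background of peak calling. The deposited lists give the start and end of each final peak and combine the replicates, with no height, score or value per library. The sequencing depth behind a peak is therefore unknown, no spread between replicates can be given, and every interval below covers counting error alone.

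PHF20 and its homolog PHF20L1 are chromatin readers with Tudor and PHD domains, which recognize methylated lysines, and both are subunits of the nonspecific lethal (NSL) complex. The NSL complex carries the acetyltransferase KAT8 and is known for acting at the promoters of housekeeping genes. Many such promoters are CpG islands that hold binding letters of ETS factors such as GABPA, of SP/KLF zinc finger factors, or of NRF1 and YY1. A CpG island promoter often starts transcription at several positions, and the region just upstream of a start site is usually free of nucleosomes.

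Sequences are shown first, because the presence and place of ETS letters was the clearest sequence difference between narrow and wide peaks. The ETS letters searched were ACTTCCGG or, on the other strand, CCGGAAGT. Within the peak itself they were found in 8 of the 457 narrow peaks (1.75%). All 8 are printed below as 30 bases of hg38 read 5′ to 3′ on the gene's strand, with the ETS letters in capitals. The genes encode zinc finger proteins (ZBTB37, ZFP62), proteins of the secretory pathway (ERGIC3, PDIA6), a tether of glucose transporters (ASPSCR1), an mRNA export factor (NXT2), a BBSome subunit (BBIP1) and a lipid transfer protein (OSBPL9).
ZBTB37 (chr1:173868345-173868374, plus strand): tgggggatttcACTTCCGGgacggtgttcc
ERGIC3 (chr20:35542142-35542171, plus strand): gactttggaggACTTCCGGgtcaagacctg
ASPSCR1 (chr17:81977529-81977558, plus strand): cctggcaggacCCGGAAGTgcgctgcggcc
NXT2 (chrX:109536843-109536872, plus strand): cggaccgagctACTTCCGGgagagaatggg
BBIP1 (chr10:110918936-110918965, minus strand): ccctctcctgcCCGGAAGTtgcatttggca
OSBPL9 (chr1:51729270-51729299, plus strand): gacacaactttCCGGAAGTaagcaaaatcc
PDIA6 (chr2:10812561-10812590, minus strand): gccgcaggcggCCGGAAGTgggcctggcgg
ZFP62 (chr5:180861579-180861608, minus strand): gccaggcccccACTTCCGGgaacgtccccg

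In most members with ETS letters near the peak, the letters were not whole inside it. The 3 such members closest to a TSS are shown in the same way. At APEH and ZNF740 the letters lay beyond the edge of the peak, and at TRAPPC6B across it, with 5 of the 8 bases inside. They belong to APEH, TRAPPC6B, a subunit of a vesicle tethering complex, and the zinc finger gene ZNF740.
APEH (chr3:49674340-49674369, plus strand): ccggaagcctcACTTCCGGgcgcgagcacg
TRAPPC6B (chr14:39170392-39170421, minus strand): ggtagaggggaCCGGAAGTtgtttttttcg
ZNF740 (chr12:53180628-53180657, plus strand): agctgccgagcCCGGAAGTggatgcagccg

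A pair of whole narrow peaks upstream of their TSS gives examples of members without the exact ETS letters searched. It was chosen because neither overlaps an annotated UTR and both hold SP/KLF letters (GGGGCGGG or CCCGCCCC, in capitals, overlapping copies joined). Both also hold GGAA, the core of ETS sites. SP/KLF letters inside the peak were found in 75 of the 457 members (16.4%), so the pair is not typical of them all. CCNG2 encodes cyclin G2, and its peak (chr4:77156930-77157172, plus strand) was centred 156 bp before the TSS. ITGAV encodes the integrin alpha V chain, and its peak (chr2:186589717-186589960, plus strand) was centred 171 bp before the TSS.
CCNG2: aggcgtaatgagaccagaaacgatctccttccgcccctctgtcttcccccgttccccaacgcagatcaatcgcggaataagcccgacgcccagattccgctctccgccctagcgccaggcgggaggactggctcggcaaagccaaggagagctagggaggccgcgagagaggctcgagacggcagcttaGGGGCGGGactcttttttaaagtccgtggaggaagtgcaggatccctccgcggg
ITGAV: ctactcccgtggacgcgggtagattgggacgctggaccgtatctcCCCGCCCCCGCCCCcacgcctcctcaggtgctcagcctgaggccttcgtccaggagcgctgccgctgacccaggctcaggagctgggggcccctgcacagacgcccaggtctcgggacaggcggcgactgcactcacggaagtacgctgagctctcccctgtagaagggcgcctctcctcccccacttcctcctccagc

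Narrow peaks made up 15.4% of the 2975 PHF20-only peaks at coding promoters (Wilson 95% interval 14.1% to 16.7%). Their median width was 246 bp (lowest 200, quartiles 220 and 274, highest 299 bp), whereas wide peaks had a median of 643 bp and reached 1905 bp. Of the members, 50 had a width of exactly 200 bp (10.9%), which is the fragment extension used in peak calling, 188 spanned 201 to 249 bp and 219 spanned 250 to 299 bp. The number of peaks per 20 bp was highest from 200 bp on (113 peaks, with the 50 of exactly 200 bp), stood at 91 just below the limit of 300 bp and 80 just above it, and was 60 from 360 bp and 95 from 420 bp. There was thus no gap at the limit. Just inside the limit, at 299 bp, lay peaks at RPN1 (a subunit of the oligosaccharyltransferase, chr3:128681020-128681318), DDX60 (an RNA helicase, chr4:168318417-168318715) and FNTA (a farnesyltransferase subunit, chr8:43055943-43056241). Just outside, at 300 bp, lay peaks at HNRNPD (an RNA-binding protein, chr4:82373699-82373998), ZFYVE16 (an endosomal protein, chr5:80407555-80407854) and NOP56 (a nucleolar protein, chr20:2652110-2652409).

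Of all 643 PHF20 peaks under 300 bp, 457 were members (71.1%), 178 lay outside coding promoters and 8 overlapped a PHF20L1 peak at a coding promoter (1.24%). Counted anywhere in the genome, 12 of the 643 overlapped a PHF20L1 peak (1.87%), against 16.2% of all PHF20 peaks. Absence from the PHF20L1 list means only that no peak was called there at the thresholds used. Coding promoter peaks that were shared with PHF20L1, 587 in number, had a median width of 974 bp.

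**Figure D1:**
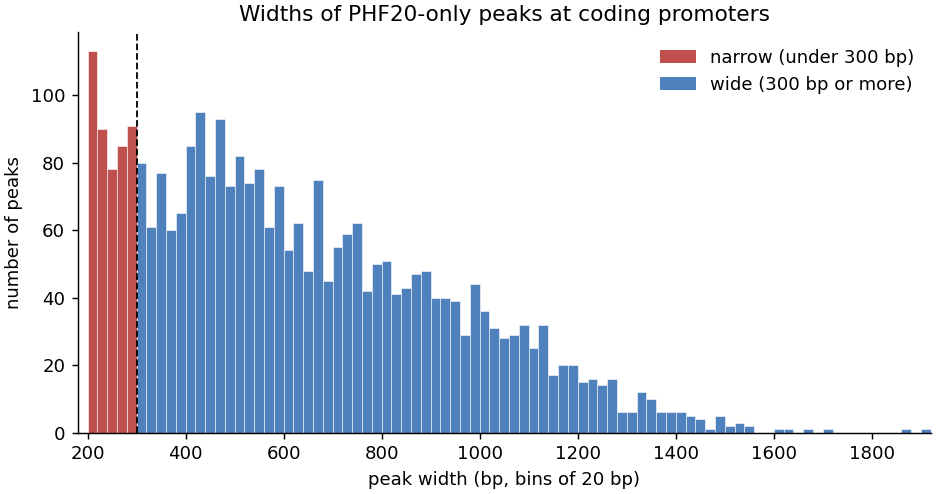
Number of PHF20-only peaks at coding promoters by width (x axis, bp, in bins of 20 bp; y axis, number of peaks), with the 457 narrow peaks in red, the 2518 wide peaks in blue and the limit of 300 bp as a dashed line. The first step holds 113 peaks, the steps on either side of the limit hold 91 and 80, and the widest peak reaches 1905 bp.

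To find what the narrow peaks share beyond their width, 22 features of sequence, position and gene were compared with those of the wide peaks by two-sided Fisher's exact tests, adjusted over the 22 by the Benjamini-Hochberg method. An exact adjusted p below stands for this test. Features on a continuous scale were compared as the share of peaks above the median of both classes together. The distance to PHF20L1 peaks, which is bound up with how the members were chosen, was not tested and is given below as a description. Of the 22 features, 5 had an adjusted p below 0.05. They were fewer ETS letters and fewer divergent promoters in the narrow peaks, and in the other direction a higher GC content, a larger distance to the TSS and more neighbouring PHF20 peaks. The last of these depends in part on the width by which members were chosen, so its test cannot set it apart from that choice.

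**Figure D2:**
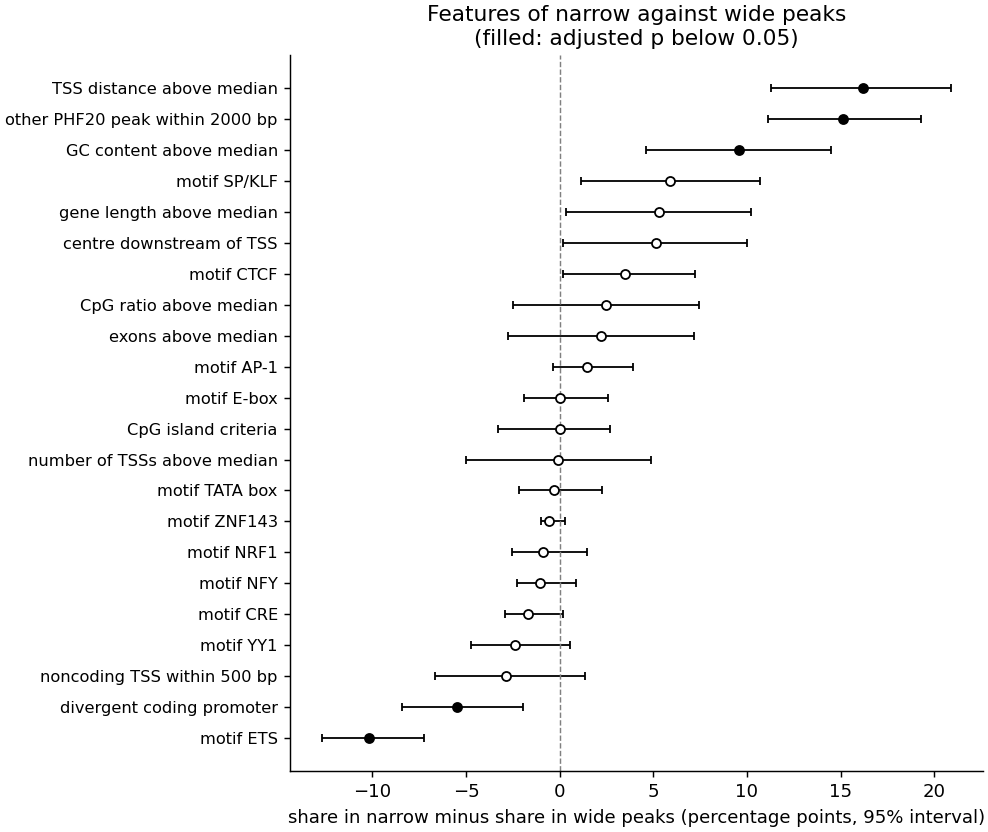
Share of narrow peaks minus share of wide peaks for each of the 22 features (x axis, percentage points; points with 95% Newcombe intervals; filled points have an adjusted p below 0.05). The largest differences are a distance to the TSS above the median (16.2 points), another PHF20 peak within 2000 bp (15.1 points) and ETS letters (−10.2 points). The presence of another PHF20 peak depends in part on peak width.

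Motifs were searched on both strands in the 250 bp on each side of each peak's centre, so that narrow and wide peaks were read over the same length. Windows of neighbouring peaks can overlap, yet the tests and intervals count each peak as separate. The ETS difference among peaks without a neighbour is given below. ETS letters were found in 30 of 457 narrow peaks (6.56%) and 423 of 2518 wide peaks (16.8%). The difference was −10.2 percentage points (95% interval −12.7 to −7.23, two-sided Fisher's exact test, adjusted p = 1.36e-08). Narrow peaks thus held ETS letters less often than wide ones. For orientation, 5.94% of windows of the same length at the outermost TSS of all 20033 coding genes held these letters, as did 3.44% of those at the 15885 genes without a PHF20 peak and 24.5% of the windows at shared peaks. The narrow peaks were close to the share over all coding genes, although those windows are centred on a TSS and not on a peak, and this was not tested.

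Within 100 bp of the centre, a stretch about as long as the smallest members, the contrast in ETS letters was larger in proportion. There, 4 narrow peaks (0.875%) and 210 wide peaks (8.34%) held them, a difference of −7.46 points (−8.73 to −5.77, exact adjusted p = 2.23e-10 over the features tested with that window). In the 30 narrow windows with ETS letters, the copy nearest the centre lay a median of 147 bp from it (quartiles 130 and 162 bp), against 98.0 bp (42.0 and 167 bp) in the wide ones. With 8 members holding ETS letters inside the peak, 21 had them past its edge and 1 across it. Measured from the TSS, the same copies lay at a median of −34.5 bp in narrow and −38.0 bp in wide windows. They stood within 100 bp of the TSS in 14 of the 30 narrow windows (46.7%, Wilson interval 30.2% to 63.9%) and in 72.8% of the wide ones (68.4% to 76.8%).

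**Figure D3:**
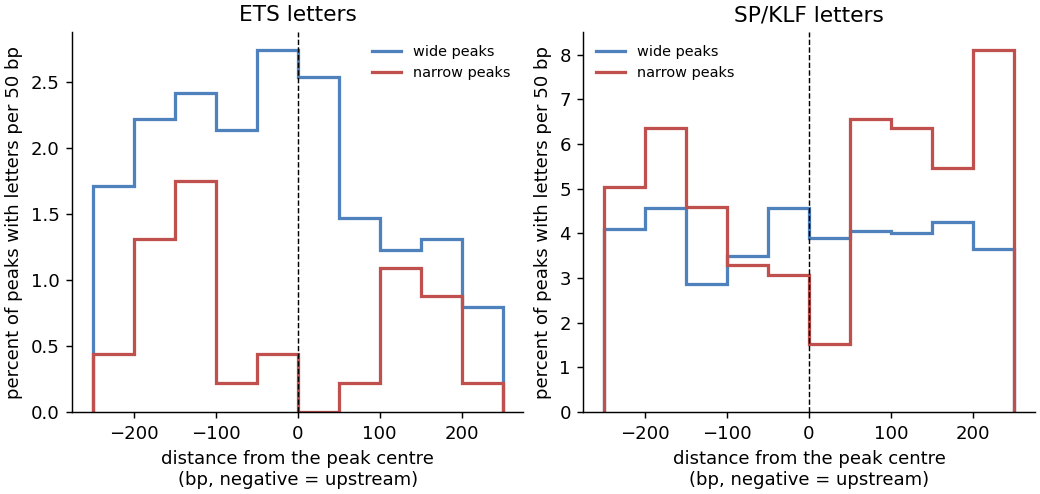
Percent of peaks with ETS letters (left) and SP/KLF letters (right) in each 50 bp step from the peak centre (x axis, bp, negative is upstream on the gene's strand), narrow peaks in red and wide peaks in blue. From 0 to 50 bp, 0 narrow peaks hold ETS letters against 2.54% of wide peaks, and 1.53% of narrow peaks hold SP/KLF letters, their lowest value.

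SP/KLF letters were the most frequent of the 11 motifs and were found in 174 narrow (38.1%) and 811 wide windows (32.2%). The difference of 5.87 points (1.15 to 10.7) did not pass the test (exact adjusted p = 0.0553). It passed in 5 of 12 alternatives, with −1.33 to 8.69 points over all 12, and was 3.43 points (−1.25 to 8.11) within 3 classes of GC content. Over all coding genes 33.5% of windows held them. Along the window, SP/KLF letters in narrow peaks were rarest from 0 to 50 bp after the centre (1.53%) and most frequent from 200 to 250 bp after it (8.10%). Within 100 bp of the centre the difference had the opposite sign (−1.33 points, −4.46 to 2.33, exact adjusted p = 0.663).

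For the remaining 9 motifs no difference passed the test with these windows and classes, although those in CRE and CTCF letters did under alternatives. CTCF letters (AGGGGGCG), a core of the site of an insulator protein, were found in 15.1% of narrow and 11.6% of wide windows (difference 3.46 points, 0.197 to 7.23, exact adjusted p = 0.114). Against wide peaks of 600 bp or more, the CTCF difference was 4.99 points (exact adjusted p = 0.0119). YY1 letters (AAGATGGC) were found in 7.22% and 9.61% (−2.39 points, −4.76 to 0.565), and CRE letters (TGACGTCA), bound by CREB and ATF factors, in 1.97% and 3.65% (−1.68 points, exact adjusted p = 0.151). The CRE difference passed against wide peaks of 600 bp or more (−3.23 points, exact adjusted p = 0.00736) and within 100 bp of the centre (−1.95 points, exact adjusted p = 0.00245). E-box letters (CACGTGAC), bound by bHLH zipper factors, were found in 5.25% and 5.24% (interval of the difference −1.93 to 2.58 points). NRF1 letters (GCATGCGC) stood in 3.94% and 4.81% of windows, NFY letters (CCAATCAG) in 2.19% and 3.22%, AP-1 letters (TGACTCA) in 4.81% and 3.38%, and TATA box letters (TATAAA) in 5.03% and 5.32%. ZNF143 letters (ACTACAAT) were in 0 narrow windows, which allows a share of up to 0.656% (3 counts of 457), and in 0.596% of wide ones. Both classes held TATA letters less often than the windows of all coding genes (13.9%). Those windows are centred on a TSS and not on a peak, and this was not tested. None of the 11 motifs was present in 173 narrow windows (37.9%), against 35.5% of wide ones.

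Letters were also screened without choosing motifs. Of 27923 8-mers present in at least 10 of the windows, 8 differed between narrow and wide peaks at an adjusted p below 0.05 (0.0287% of those tested). The ETS letters ACTTCCGG ranked first (exact adjusted p = 5.2e-05). This repeats the motif test above on the same windows and is no separate support for it. A further 6 of the 8 were also less frequent in narrow peaks and held the core GGAA of ETS sites. Among them, CACTTCCG was in 6.13% of narrow and 15.3% of wide windows and GCCGGAAA in 0.875% and 4.85%. The 1 called 8-mer in the other direction was GCGCCCCC, found in 88 narrow (19.3%) and 278 wide windows (exact adjusted p = 0.014). The balance of directions depended on the choice of peaks and 8-mers: 23 were more frequent in narrow and 17 in wide peaks when wide peaks were of 600 bp or more, and 12 and 11 among 8-mers in at least 50 windows. These 8-mers overlap one another and are not independent observations.

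GC content in the windows had a median of 67.3% in narrow and 65.5% in wide peaks. A GC content above 65.7% was found in 57.3% of narrow and 47.7% of wide windows, a difference of 9.59 points (4.62 to 14.5, exact adjusted p = 9.11e-04). The ratio of observed to expected CpG did not pass the test (above 0.828 in 52.1% and 49.6%, interval −2.50 to 7.42 points). Within 100 bp of the centre its difference had the opposite sign (−5.00 points, −9.92 to −0.0196, exact adjusted p = 0.117). CpG island criteria (GC of at least 50% and a CpG ratio of at least 0.6) were met by 412 narrow windows (90.2%) and by the same percentage of wide windows, with an interval of −3.27 to 2.70 points. Over these windows, narrow peaks as a class therefore met these criteria about as often as wide ones, to within a few points, and had a higher GC content. The share was 82.0% among the 50 members of exactly 200 bp (Wilson interval 69.2% to 90.2%). Within 100 bp of the centre the difference in these criteria was −2.38 points (−6.49 to 1.30).

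Narrow peaks lay farther from start sites. The centre was a median of 161 bp from the nearest coding TSS (quartiles 75 and 280 bp), against 100 bp (33 and 206 bp) for wide and 60 bp (18 and 146 bp) for shared peaks. A distance above 108 bp was found for 63.5% of narrow and 47.2% of wide peaks, a difference of 16.2 points (11.3 to 20.9, exact adjusted p = 1.85e-09). The centre was used because a wider peak reaches a TSS more easily: a TSS lay inside 41.6% of narrow and 82.3% of wide peaks, a share that width by itself affects.

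The classes differed in place on both sides of the TSS. In the 100 bp before the TSS, 40 narrow peaks were centred (8.75%, Wilson interval 6.49% to 11.7%), against 22.5% of wide peaks (20.9% to 24.2%) and 29.6% of shared ones. From 200 to 300 bp upstream it was the other way round, with 10.9% of narrow (8.40% to 14.1%) and 5.12% of wide peaks (4.33% to 6.05%). After the TSS, 55 of the 457 narrow peaks and 16.7% of wide peaks were centred in the first 50 bp, and as many narrow peaks and 8.34% of wide peaks from 100 to 150 bp. From 100 to 500 bp downstream the shares were 32.4% (28.3% to 36.8%) and 25.8% (24.1% to 27.5%). From 0 to 150 bp as a whole the shares were alike, at 36.5% (32.3% to 41.1%) and 35.6% (33.7% to 37.5%). Narrow centres were thus fewer in the 100 bp before and the first 50 bp after the TSS. They were more frequent from 200 to 300 bp upstream and from 100 to 500 bp downstream. Other steps did not follow distance alone. Narrow shares were higher from 50 to 100 bp (12.5% and 10.5%) and lower from −150 to −100 bp (2.84% and 5.16%). These zones were chosen after the positions had been seen and are descriptions. The share of centres downstream of the TSS was 58.0% in narrow and 52.9% in wide peaks (difference 5.13 points, 0.158 to 9.98, exact adjusted p = 0.114).

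**Figure D4:**
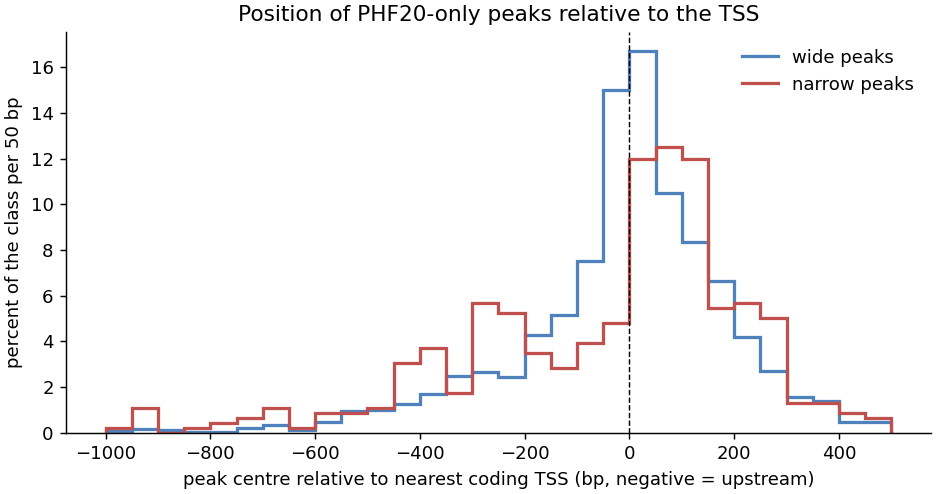
Position of peak centres relative to the nearest coding TSS (x axis, bp, negative is upstream; y axis, percent of the class in each 50 bp step), narrow peaks in red and wide peaks in blue. Wide peaks are highest from 0 to 50 bp (16.7%) and narrow peaks from 50 to 100 bp (12.5%), with a second rise of narrow peaks 200 to 300 bp upstream.

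By annotation, 31.7% of narrow centres lay in an intron of a coding gene, 28.9% in a UTR exon, 14.2% in coding sequence, 3.50% in an exon of a noncoding transcript and 21.7% outside coding genes. Wide peaks had 25.4% in introns and 32.2% in UTR exons. Members at the extremes show the range. Among the 50 peaks of 200 bp, that at UBR2, which encodes a ubiquitin ligase, was centred on the TSS itself (chr6:42563929-42564128), and that at ZMYND11, which encodes a reader of methylated histone H3, 3 bp downstream (chr10:135716-135915). The member farthest upstream was centred 1113 bp before a TSS of ANKRD53 (chr2:70977151-70977382), and that farthest downstream 597 bp after a TSS of AP3S2 (chr15:89893254-89893492), which encodes an adaptor protein subunit.

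A divergent coding promoter, with the TSS of another coding gene head to head within 1000 bp, was found at 50 narrow peaks (10.9%) and 413 wide peaks (16.4%). The difference was −5.46 points (−8.41 to −1.98, exact adjusted p = 0.0111). It did not pass in peaks without a neighbouring PHF20 peak (−5.14 points, exact adjusted p = 0.0765) or with narrow peaks under 250 bp (−5.90 points, exact adjusted p = 0.0579). Narrow peaks thus lay less often at such promoters. The peak itself need not lie between the start sites: that at NIF3L1 was centred 567 bp after its TSS. By width, such promoters were found at 1 of the 50 peaks of 200 bp, 12.8% at 201 to 249 bp and 11.4% at 250 to 299 bp. Among wide peaks the shares were 13.3% at 300 to 449 bp, 12.3% at 450 to 599 bp and highest, 23.7%, at 900 bp or more. Peaks of 201 to 299 bp were thus close to those of 300 to 599 bp, which was not tested. The promoter windows of more than 1 coding gene were overlapped by 15.8% of narrow and 22.9% of wide peaks. Width by itself affects this share, so it is a description only. A TSS of a noncoding gene within 500 bp was found at 20.1% of narrow peaks, a difference of −2.86 points from wide ones (−6.68 to 1.37).

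Narrow peaks often had company. Another PHF20 peak lay within 2000 bp of 112 narrow peaks (24.5%) and of 238 wide peaks (9.45%), a difference of 15.1 points (11.1 to 19.3, exact adjusted p = 1.14e-15). The nearest neighbour was wide in 66 cases, narrow in 34, shared in 10 and at no coding promoter in 2. It was wider than the member in 92 of the 112 (82.1%). That share follows largely from the choice of members, since only 643 of the 4147 PHF20 peaks were under 300 bp. The median gap between member and neighbour was 162 bp (52 to 1645 bp). The share with a neighbour depends in part on width, since a peak that covers both positions is 1 peak in the list, and 2 narrow neighbours count each other. Its test therefore cannot set the neighbours apart from the width by which members were chosen.

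The gaps were short beside the length of a promoter. At CCDC50, a peak of 207 bp (chr3:191329022-191329228) ended 52 bp before a wide peak of 402 bp, the shortest gap found. At THRAP3, which encodes a splicing and transcription coactivator, a member of 247 bp stood 258 bp from a wide peak of 398 bp. Several promoters carried a pair of narrow peaks. At APEH, which encodes an acylpeptide hydrolase, peaks of 297 and 231 bp stood 165 bp apart, and at GALK1, which encodes galactokinase, peaks of 207 and 296 bp stood 65 bp apart. The gene of the factor NRF1 had a pair of narrow peaks of 275 bp each, centred 179 bp before one start site and 220 bp after another, and SETD1A, which encodes a histone H3K4 methyltransferase, had peaks of 221 and 287 bp. RAD9A and PUM2 each had 2 narrow peaks and 1 wide one.

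ETS letters were found in 4 of the 112 members with a neighbour (3.57%, Wilson interval 1.40% to 8.82%) and in 26 of the 345 without (7.54%, 5.19% to 10.8%). Among peaks without a neighbour, an alternative chosen after the data were seen, the ETS difference was −9.92 points (−12.8 to −6.31, exact adjusted p = 6.90e-06) and that in TSS distance 18.9 points (13.4 to 24.1, exact adjusted p = 1.07e-09). Each of these intervals holds the value found with the neighbours included.

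A PHF20L1 peak within 5000 bp was found at 11 narrow peaks (2.41%) and 23 wide peaks (0.913%). The difference was 1.49 points (0.343 to 3.37). Among peaks without another PHF20 peak within 2000 bp it was −0.0610 points (−0.476 to 1.28). That setting by itself removes most of the 11 members, which also have a PHF20 neighbour. The lower value there therefore decides nothing about the higher share in narrow peaks. Since members were chosen by the absence of an overlapping PHF20L1 peak, these are descriptions with no test. In 10 of the 11 members the PHF20L1 peak lay within 1000 bp. The nearest was 91 bp from the member at VPS35L, a subunit of an endosomal recycling complex. That at CUL4A, which encodes a ubiquitin ligase scaffold, had it 180 bp away, that at GABARAP, an autophagy protein, 206 bp away and that at HEXIM1, an inhibitor of transcription elongation, 359 bp away. At CUL4A the member of 292 bp stood 71 bp from a shared peak of 896 bp, and at VPS35L 105 bp from a shared peak of 395 bp.

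To see whether the limit of 300 bp marks a change, features were followed across 7 width classes. ETS letters were in 2 of the 50 peaks of 200 bp (Wilson interval up to 13.5%), 7.45% of those of 201 to 249 bp and 6.39% of those of 250 to 299 bp. Among wide peaks they were in 9.20% at 300 to 449 bp (7.09% to 11.9%), 12.1% at 450 to 599 bp, 18.7% at 600 to 899 bp and 25.9% at 900 bp or more (22.5% to 29.5%). The 3 narrow classes overlapped in their intervals, and the share was higher in each wide class than in the one before it. Centres lay within 100 bp of a TSS in 32.0%, 30.3% and 36.1% of the narrow classes, in 33.1% at 300 to 449 bp and in 68.2% of the widest. SP/KLF letters stood in 42.0%, 39.9% and 35.6% of the narrow classes, in 38.2% at 300 to 449 bp and in 29.8%, 29.2% and 32.8% of the wider ones. Neighbouring PHF20 peaks went the other way, from 24.0%, 24.5% and 24.7% in the narrow classes to 18.1% at 300 to 449 bp and 1.99% in the widest. In SP/KLF letters and distance to the TSS, peaks of 300 to 449 bp thus lay among the narrow classes, whereas in ETS letters and neighbours they lay between these and the wider ones. Steps between classes were not tested.

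**Figure D5:**
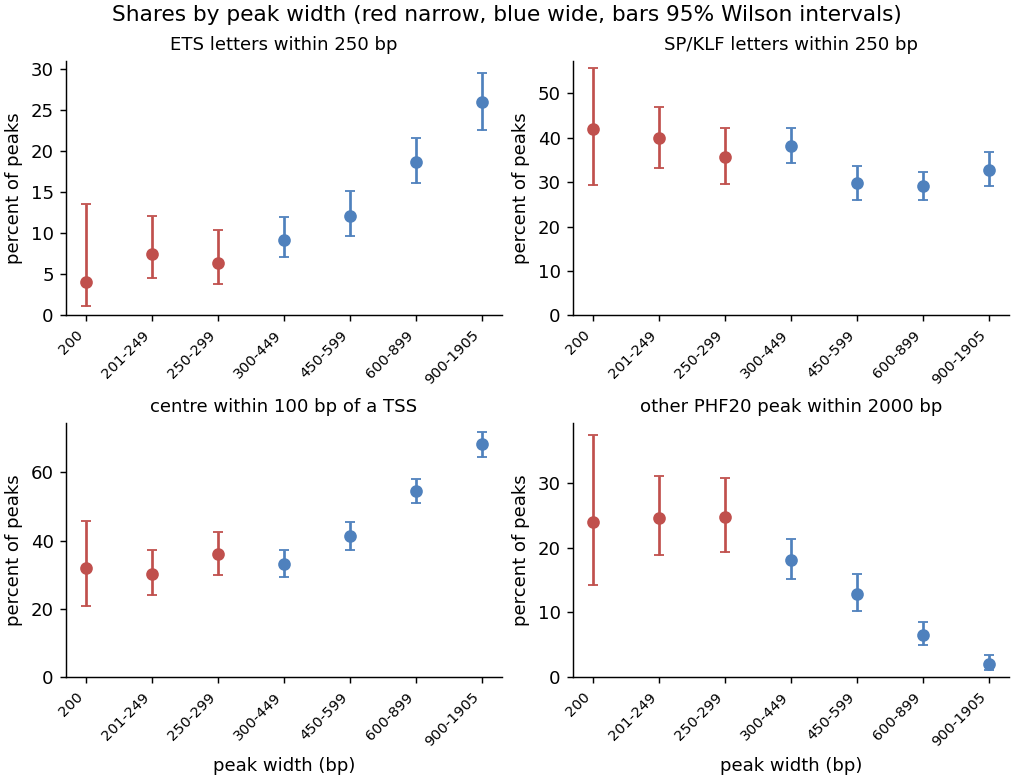
Percent of PHF20-only coding promoter peaks (y axis) with ETS letters, with SP/KLF letters, centred within 100 bp of a TSS, or with another PHF20 peak within 2000 bp, by width class (x axis, bp; narrow classes in red, wide in blue; bars are 95% Wilson intervals). ETS letters reach 25.9% in the widest class and neighbouring peaks go from 24.7% at 250 to 299 bp to 18.1% at 300 to 449 bp and 1.99% in the widest class.

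The promoter windows of 514 coding genes held a narrow peak (2.57% of 20033), more genes than peaks because some windows overlap. Of these genes, 409 had narrow peaks alone (79.6%), 90 also had a wide PHF20-only peak, 15 also a shared peak and 18 had 2 or more narrow peaks. At most of the genes, therefore, no PHF20 peak of another kind lay at the promoter. The gene nearest a peak did not differ detectably in length (above 36423 bp in 54.5% of narrow and 49.2% of wide peaks, interval 0.337 to 10.2 points, exact adjusted p = 0.114, although 7.13 points and 0.0211 against wide peaks of 600 bp or more), in exons (49.7% and 47.5% with more than 10, −2.75 to 7.18 points) or in annotated start sites (46.2% and 46.3% with more than 8, −5.02 to 4.88 points).

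Housekeeping families were present among the narrow peaks in small numbers. In translation, narrow peaks were found at 4 of 86 genes of cytosolic ribosomal proteins (4.65%), 4 of 78 of mitochondrial ribosomal proteins (5.13%), 2 of 34 tRNA synthetases (5.88%) and 0 of 56 EIF factors, against 2.57% of all coding genes. Any PHF20 peak was found at 43, 53, 19 and 24 genes of these families, and at 4148 of all 20033 coding genes (20.7%). RPL41, a protein of the large ribosomal subunit, had a peak of 231 bp centred 52 bp before its TSS (chr12:56116601-56116831), and RPS4X, of the small subunit, one of 270 bp (chrX:72277029-72277298). A peak of 298 bp centred 84 bp after the TSS of RPL7A (chr9:133348187-133348484) was counted also for the Mediator gene MED22, whose promoter window it overlapped. Likewise a peak of 219 bp centred 215 bp after the TSS of the seryl tRNA synthetase gene SARS2 (chr19:38930434-38930652) was counted also for MRPS12. AARS1, the alanyl tRNA synthetase gene, had a peak of 241 bp (chr16:70289157-70289397).

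Other families of basic cell functions were counted in the same way, beside 2.57% of all coding genes with a narrow peak and 20.7% with any PHF20 peak. Counts were 3 of 62 spliceosome genes (4.84%), 2 of 31 RNA polymerase subunits (6.45%), 1 of 30 Mediator subunits, 1 of 48 proteasome genes, 1 of 47 genes with NDUF symbols, given mostly to subunits of respiratory complex I, and 0 of 25 TOMM and TIMM import genes. NDUFA4, whose product is known as a subunit of cytochrome c oxidase, had a peak of 283 bp centred 19 bp before its TSS (chr7:10939957-10940239), and SRSF3, a splicing factor gene, one of 251 bp (chr6:36594292-36594542). In protein turnover and traffic, 4 of 86 ubiquitin-conjugating and USP genes (4.65%), 1 of 53 DNAJ and CCT chaperone genes, 3 of 74 RAB genes, 2 of 34 VPS genes and 2 of 22 PIG genes of GPI anchor synthesis had a narrow peak. Examples were UBE2D3 with a peak of 228 bp, VPS29 with one of 293 bp and PIGV with one of 290 bp. No test was made of these lists, whose counts are too small to set them apart from one another.

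Families of variable or tissue-restricted expression were counted beside the same background of 2.57% for narrow peaks and 20.7% for any PHF20 peak, with no test. No narrow peak, nor any PHF20 peak, lay at 415 olfactory receptor genes or at 55 keratin genes. Solute carriers had 6 of 368 (1.63%), among them the folate carrier gene SLC19A1 with a peak of 221 bp. ZNF zinc finger genes had 17 of 509 (3.34%), with any PHF20 peak at 32.6%. ZNF219 had a peak of 200 bp centred 3 bp after its TSS, and ZNF740 one of 222 bp with ETS letters outside it. Histone genes had a narrow peak at 4 of 95 genes (4.21%), a wide peak at 4 and a shared peak at 0. The 4 genes rested on 3 narrow peaks. They were H2BC21 and H2AC20, which had the same peak of 246 bp in their promoter windows (chr1:149886528-149886773), H1-10 with one of 238 bp and H4C11 with one of 200 bp. All of these histone gene windows held TATA box letters.

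None of the 15 genes of particular interest in the study or in the NSL complex had a narrow peak, a count that says little for so few genes beside the 2.57% of all coding genes. PHF20L1, KANSL2, KANSL3, WDR5 and MCRS1, the GPI transamidase gene PIGT and the SNARE gene VAMP3 had wide PHF20-only peaks of 402 to 1306 bp. NAGPA, NUDCD3 and LAMP1 had shared peaks of 1661 to 2207 bp, and PHF20, KANSL1, KAT8, HCFC1 and OGT had no PHF20 peak at a promoter. Narrow peaks were found on chromosomes 1 to 22 and X, at 10.1% of the PHF20-only coding promoter peaks on chromosome 14 and at 23.3% (7 peaks) on X.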

How the data were processed

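HA ChIP-Seq of PHF20 and PHF20L1 was analysed from the final peak lists. The deposited values are peak positions (start and end in bp). Per the study's methods, the authors aligned 50-base single reads to hg38 with Bowtie (version 1.1.2 per the submitters' processing notes), kept uniquely mapped, deduplicated reads, called peaks with MACS2 2.2.7.1 against input with an extension of 200 bp and removed blacklisted regions. One PHF20 replicate that had failed was left out by them. Peaks of the best replicate (p-value of at most 0.01) were kept where they overlapped peaks of the others (at most 0.05). Unique mapping lowers signal in repeated sequence, and the extension sets the smallest width.

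From these positions, peaks were classified against GENCODE release 44 (the authors used release 35), and sequences, printed on hg38 counted from 1, were read from the genome. Shares have Wilson and differences Newcombe 95% intervals, and for a count of 0 the share that 3 counts would give is stated. Two-sided Fisher's exact tests were adjusted by Benjamini-Hochberg over 22 features. The distance to PHF20L1 peaks, planned as 1 more, was left out after the data were seen because it is bound up with the choice of members. In simulated windows of the same numbers, 10 of 10 8-mers planted less often in narrow than in wide windows were called, with 0 called where nothing was planted. Both simulated classes were random bases of the same composition. The simulation therefore cannot tell how many calls a difference in GC content would give. Tests were run with scipy 1.17.1 and, within classes, statsmodels 0.14.6. Sequences were read with samtools 1.23.1 through pysam 0.24.0, and figures were drawn with matplotlib 3.10.9 (Python 3.11.15, numpy 2.4.6).

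The members, motifs, families and tests were chosen with earlier results of these data known. Genes named were those next to the limit of 300 bp, nearest to and farthest from a TSS, in each family nearest to the TSS, with several peaks, or of interest in the study; further examples were picked after their values were seen. The choice of alternatives is given with their effect.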

Additional observations from a re-analysis of the deposited data

How the results depend on the processing

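No paired analysis was possible because replicates are merged in each deposited list, and for the same reason no replicate could be left out. The lists hold no height or depth, so weak and deeply covered peaks could not be separated, and the repeat-masked share was not run because the genome used carries no mask. The differences in ETS letters, GC content and TSS distance kept their direction and passed under every alternative run for them, with ETS differences of −15.2 to −7.46 points. Of 214 values of single tested features under alternatives, 180 kept direction and call, 2 no longer passed and 10 newly passed. The other 22 changed sign, and all of these passed in neither case. The share with a PHF20L1 peak within 5000 bp, which was not tested, is not among these values. Its difference of 1.49 points went to −0.0610 without neighbouring peaks and to −0.0959 without PHF20L1 peaks within 1000 bp. Both settings by themselves remove peaks of this kind. Alternatives without neighbouring peaks, with the window on the TSS, within 3 classes of GC content or TSS distance, or with the PHF20L1 distance in the adjustment were chosen after the data were seen. The cause of the changes below was not tested.

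With narrow peaks under 250 bp (238 members), the signs of CpG island criteria (−1.50 points) and number of TSSs (2.05) turned. With wide peaks of 600 bp or more, 4 motifs (in place of 1) and 1 gene feature (in place of 0) and 40 8-mers (23 more frequent in narrow and 17 in wide peaks, in place of 1 and 7) passed, with E-box at −0.0191, TATA box at 0.195 and CpG island criteria at −1.69 points. Signs also turned with the peak centre in the window (E-box −0.0910, number of TSSs 0.226), within 3 classes of CpG count (E-box −0.0753, TATA box 0.202) and within 3 classes of GC content (E-box −0.00399, TATA box 0.591). Without neighbouring peaks, 1 position feature (in place of 3, of which this setting itself removes the neighbour feature) and 4 8-mers passed, with E-box at −0.582 points. Without PHF20L1 peaks within 1000 bp, CpG island criteria stood at −0.0152 and number of TSSs at 0.268 points. Within 100 bp of the centre, 4 8-mers passed, and signs turned for E-box (−0.514), SP/KLF (−1.33), TATA box (0.361), CTCF (−1.03), CpG ratio (−5.00) and CpG island criteria (−2.38). With the window on the TSS, E-box stood at −0.446 and CpG island criteria at −1.06 points. Among 8-mers in at least 50 windows, 23 passed (12 and 11). The call lost was that of divergent promoters, under 250 bp and without neighbours. SP/KLF letters passed, so that 2 motifs did, with the PHF20L1 distance in the adjustment (5.87 points, exact adjusted p = 0.0495), without PHF20L1 peaks within 1000 bp (6.54), within 3 classes of TSS distance (7.03) and with the window on the TSS (8.69), and passed also with wide peaks of 600 bp or more (7.32). Other calls gained were, with wide peaks of 600 bp or more, CRE (−3.23 points), CTCF (4.99), centres downstream of the TSS (9.83) and gene length (7.13) and, within 100 bp of the centre, CRE (−1.95), so that 2 motifs passed there.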
